A study of Mus musculus with 764 samples.

Results

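In single IL-10-producing CD4+ T cells of the mouse, 10 cytokine receptor genes are described: Il2rg, Il2rb, Il7r, Il21r and Il4ra of the common gamma-chain family, Il10ra, Il27ra and Il6st of the IL-10 and gp130 families, and Tgfbr1 and Tgfbr2 for TGF-beta. They were picked by name as the 10 members among 23997 gene rows, and each had a row in both count tables. Their level, the share of cells with at least 10 reads, and their correlation with Il10 were followed in every set of cells. The mice carried 2 reporters, eGFP for Il10 and mRFP for Foxp3, and all had received anti-CD3 antibody, so no untreated cells enter the comparison. CD4+ T cells positive for the reporter were sorted from small intestine or spleen and sequenced one by one with SMART-seq2, a full-length method without molecular identifiers. The study also took Foxp3+ cells as a control, and the labels do not tell which wells held them.

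The tables held 764 cells, of which 190 were from small intestine and the others from spleen. Small intestinal cells filled columns 13 to 24 of plate p2. Splenic cells are described as 3 sets by their wells, called here spleen A (plate p1, columns 1 to 12), spleen B (plate p1, columns 13 to 24) and spleen C (plate p2, columns 1 to 12), of which spleen C shares the plate number with small intestine. Spleen B held 190 cells, and spleen A and C each held 2 cells more. Cells with few reads or genes were removed first, 19 in small intestine and 12, 6 and 13 in spleen A, B and C, and then cells called S or G2M by the cyclone classifier, 34 in small intestine and 47, 39 and 56 in spleen. This kept 72.1% of small intestinal cells and 69.3%, 76.3% and 64.1% of spleen A, B and C. Their median depth was 324546 reads in small intestine and 366140, 362505 and 316521 reads in spleen A, B and C. No animal is named in the labels. Each set therefore counts as 1 sample, no test between tissues was possible, and a difference is called only where small intestine lay outside all 3 spleen sets. Intervals given are exact 95% intervals and cover counting error only.

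The T-cell label held: Cd3e was at 10 reads or more in every kept cell, and Cd4 in 97.9% to 99.3% of cells of each set. Cd2 was the exception among 6 T-cell markers, with 67.9% of small intestinal cells against at least 96.8% of each spleen set. Of 29 markers of B, myeloid, dendritic, epithelial, NK and erythroid cells, 27 had a row. Their summed level was 175.9 CPM (reads of a gene per 1000000 reads of a cell, averaged over cells) in small intestine and 116.7, 98.9 and 91.8 CPM in spleen A, B and C. Cd68 made up most of the small intestinal value, with 104.9 CPM and at least 10 reads in 32.1% of cells. No read was found there for 9 of the 27, among them Ms4a1 of B cells, Lyz2 of myeloid cells, Ncr1 of NK cells and Hbb-bs of erythroid cells. Others were detected. Cd79b of B cells reached 10 reads in 8.03% of small intestinal cells, against 2.26%, 2.76% and 1.63% in spleen A, B and C. For Krt18 of epithelium the shares were 5.84% against 0.75%, 0.69% and 0.81%. Epcam of epithelium went the other way, with 3.65% against 13.5%, 6.21% and 4.88%. The part of these markers in the results was not tested. Foxp3 also differed between the sets: 63.9% of spleen A cells held a Foxp3 read, against 17.9% in spleen B, 6.50% in spleen C and 6.57% in small intestine.

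Most of these receptors carry no kinase domain of their own and work as assembled chains. The common gamma chain, encoded by Il2rg, pairs with IL-2R beta (Il2rb) for IL-2 and IL-15, with IL-7R alpha (Il7r), with IL-21R (Il21r) and with IL-4R alpha (Il4ra), and passes the signal through JAK1 and JAK3 to STAT proteins. IL-10R alpha (Il10ra) joins IL-10R beta to reach STAT3, and gp130 (Il6st) is shared by the receptors of IL-6, IL-27 and LIF, with IL-27R alpha (Il27ra) as its partner for IL-27. TGF-beta works differently: it binds the receptor kinase TGFBR2, which recruits and activates TGFBR1, and SMAD2 and SMAD3 carry the signal to the nucleus. IL-21, IL-27 and TGF-beta are known to favour IL-10 production by T cells, and TGF-beta induces the integrin CD103 on T cells in the gut epithelium.

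The promoter windows of 3 members are printed first: those of the member lowest and of the 2 members highest in small intestine against pooled spleen. The reference table (RefSeq, build GRCm38.p6) had an entry for 7 of the 10 members. For each gene, the 150 bases before the annotated start are given 5′ to 3′ on the gene's own strand, and capitals mark a match to one of the 6 motifs searched. Il6st, the lowest, lies on the plus strand (chr13:112463920-112464069). Il21r is on the plus strand (chr7:125603279-125603428), and Tgfbr2, the highest, on the minus strand (chr9:116175364-116175513).
Il6st: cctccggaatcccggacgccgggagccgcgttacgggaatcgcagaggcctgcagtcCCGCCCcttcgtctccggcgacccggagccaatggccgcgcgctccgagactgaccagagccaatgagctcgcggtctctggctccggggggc
Il21r: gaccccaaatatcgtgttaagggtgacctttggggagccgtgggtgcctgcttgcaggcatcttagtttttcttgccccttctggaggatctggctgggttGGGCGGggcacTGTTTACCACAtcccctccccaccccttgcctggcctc
Tgfbr2: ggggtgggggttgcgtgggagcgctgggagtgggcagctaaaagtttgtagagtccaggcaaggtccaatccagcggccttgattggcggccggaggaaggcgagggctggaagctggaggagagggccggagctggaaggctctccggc

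The motifs were sought on both strands in the 250 bases before the start: the STAT motif TTCNNNGAA, the RUNX motif TGTGGT, the FOXO motif GTAAACA, the AP-1 motif TGANTCA, the GC box GGGCGG and the palindromic SMAD box GTCTAGAC. The Il6st window held 1 GC box. The Il21r window held a GC box followed by a FOXO motif and a RUNX motif on the opposite strand, which overlap in the stretch TGTTTACCACA. No motif was found in the Tgfbr2 window. Of all 32851 windows of this length, 32.7% held a GC box, 14% the RUNX motif and 3.17% the FOXO motif. Among the other members, the Il7r window, which lies inside the gene as GENCODE draws it, held the STAT motif (7.02% of all windows). The Il2rg window held the RUNX motif, and those of Il4ra and Tgfbr1 a GC box, where the 150 bases next to the Il4ra start lie in a GENCODE exon of the gene. The AP-1 motif (6.75% of all windows) and the SMAD box (0.167%) were in no member's window. These matches describe letters and not binding.

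Of all 9264 genes with a mean of at least 10 CPM in at least 1 set, 44.8% lay below all 3 spleen sets in small intestine and 24% above them. The corresponding members were 4 of 10 below (Il2rg, Il7r, Il10ra and Il6st) and 2 of 10 above (Il21r and Tgfbr2). Their shares were near those of all genes. At least 2-fold below every spleen set were 11% of genes and 1 member, Il6st. At least 2-fold above were 5.22% of genes and 1 member, Tgfbr2. The median log2 ratio of small intestine over pooled spleen was -0.01 for the members and -0.24 for all genes, so the receptors are described one by one. When the sets were rescaled by TMM the median of all genes moved to -0.04 and the split changed to 35.3% below and 33.5% above. Under that scaling Il27ra turned from -0.07 to 0.13, and no other member changed sign against pooled spleen.

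**Figure D1:**
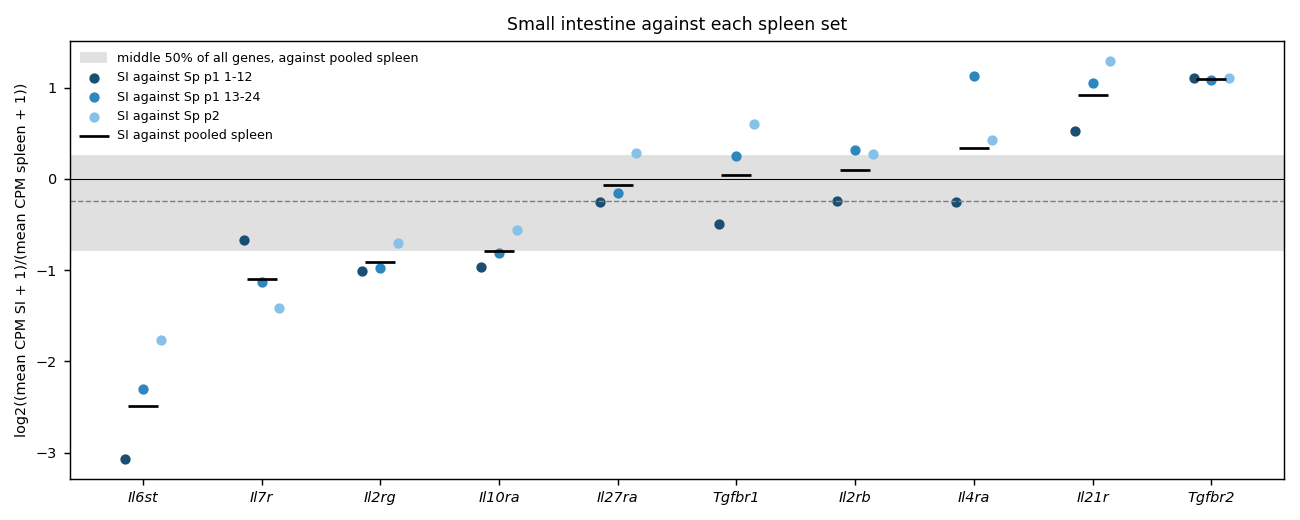
Log2 ratio of mean CPM (with 1 CPM added) of small intestine over spleen for the 10 receptor genes, ordered by the ratio over pooled spleen (black bar), with the ratio over spleen A, B and C as points. The grey band is the middle 50% of all genes, from -0.78 to 0.25. Il6st lies lowest at -2.49 and Tgfbr2 highest at 1.10, and the 3 points of Tgfbr2 coincide.

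The common gamma chain itself was among the most abundant receptor transcripts and was lower in small intestine. Il2rg (chrX:101264378-101268255, minus strand) averaged 1009.7 CPM in small intestine (SD over cells 751) against 2033, 1988 and 1642 CPM in spleen A, B and C. Taken by the median cell, the levels were 889 CPM for small intestine and 1918, 1867 and 1480.1 CPM for spleen A, B and C. The small intestinal mean lay below all 3 spleen sets, which spread less among themselves. The log2 ratio was -0.91 over pooled spleen, and -1.01, -0.98 and -0.70 over spleen A, B and C. Nearly all cells carried the transcript, with at least 10 reads in 92.7% of small intestinal cells (interval 86.99% to 96.4%) and in 97.2% to 99.2% of splenic cells. The Il2rg share was thus also below all 3 spleen sets, but those intervals overlapped.

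Il2rb, the chain that Il2rg joins to receive IL-2 and IL-15, did not differ by tissue beyond the spread of the spleen. Il2rb (chr15:78479256-78495271, minus strand) averaged 1404 CPM in small intestine (SD 766) and 1657, 1125 and 1161 CPM in spleen A, B and C. Small intestine lay between the spleen sets. The share of cells with at least 10 reads was 98.5% in small intestine and 96.2%, 95.2% and 92.7% in spleen. Spleen A was the high spleen set, and it was also the one with the most Foxp3 reads. Il2rb correlated with Foxp3 at rho = 0.44 in spleen A, 0.23 in spleen B, 0.06 in spleen C and 0.01 in small intestine. The part of Foxp3 cells in the level of spleen A was not tested. Without the cells holding a Foxp3 read, an alternative added after the values were seen, spleen A came to 1124 CPM, next to 1045 and 1150 CPM in spleen B and C, and small intestine at 1407 CPM was above all 3.

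Il7r, the receptor chain for the T-cell survival factor IL-7, was found in fewer small intestinal cells. Its mean was 258.04 CPM in small intestine (SD 832) and 410.2, 565.1 and 690.3 CPM in spleen A, B and C (chr15:9505788-9530176, minus strand). In small intestine 35 cells or 25.5% held at least 10 reads (interval 18.5% to 33.7%) against 45.1%, 42.8% and 49.6% of splenic cells. The interval for small intestine did not reach that of the nearest spleen set, 34.6% to 51.2%. With every cell thinned to 200000 reads, cells with any Il7r read were 31.1% in small intestine and 57.8%, 52.6% and 58.4% in spleen, next to 36.5%, 62.4%, 53.8% and 62.6% before thinning, with small intestine lowest both ways. The expression was concentrated: 87 small intestinal cells had no Il7r read, the 14 highest cells held 83.7% of all Il7r CPM there, and the highest cell had 6822 CPM. Among cells with at least 10 reads, the median was 440.6 CPM in small intestine and 643, 808 and 1105 CPM in spleen A, B and C, so the positive cells were also lower. The log2 ratio of the means was -1.09 over pooled spleen, and -0.67, -1.13 and -1.42 over the sets; without cells holding a Foxp3 read they were -0.33, -1.23 and -1.53. With the 5 highest cells of each set left out, the ratio was -1.76 and Il7r was at least 2-fold below every spleen set.

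**Figure D2:**
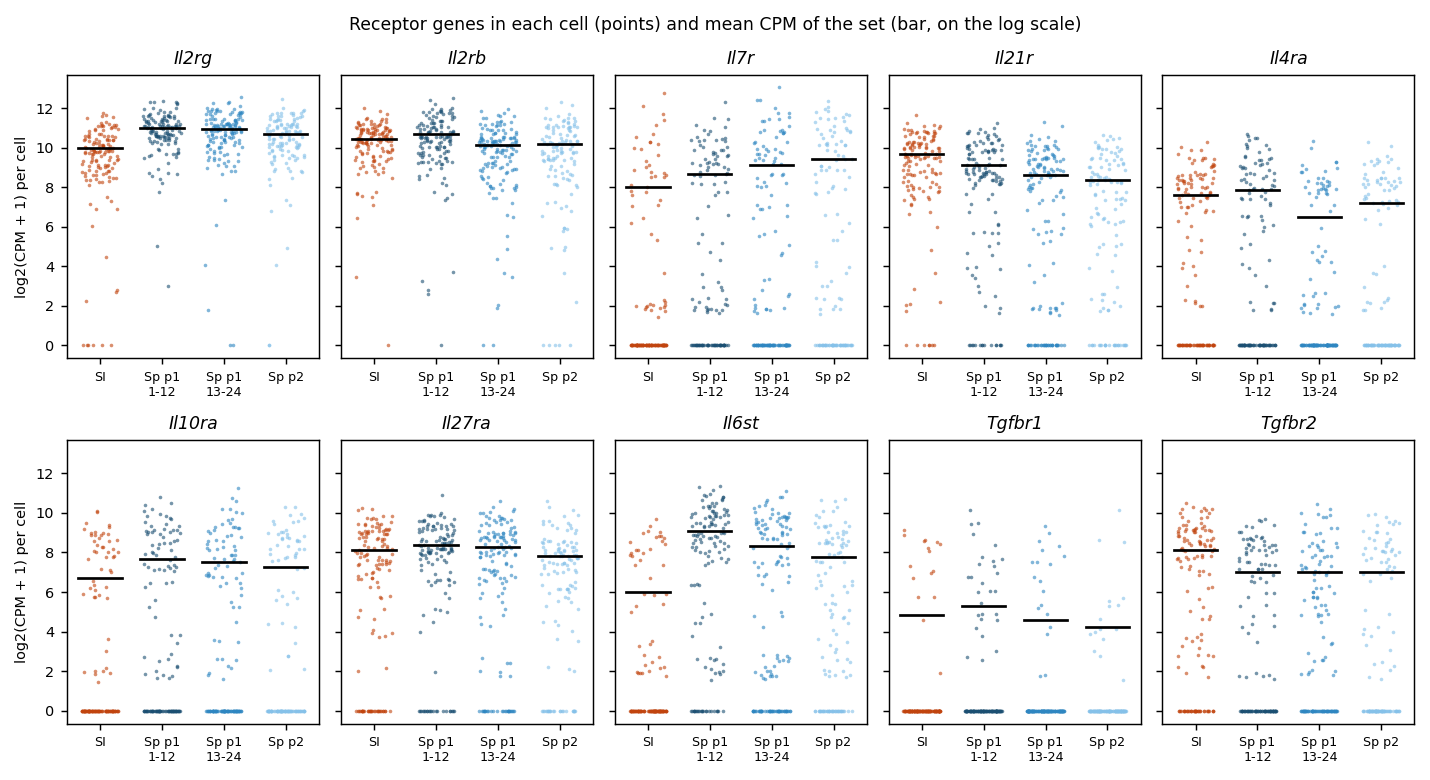
Log2(CPM + 1) of the 10 receptor genes in each kept cell (points) of small intestine (SI) and of spleen (Sp) p1 columns 1-12, p1 columns 13-24 and p2, with the set's mean CPM as a bar. Cells without a read lie at 0; for Il7r these are 87 small intestinal cells.

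Il21r, which receives IL-21, was higher in small intestine and present in most of its cells. The gene (chr7:125603429-125633570, plus strand) averaged 810.4 CPM in small intestine (SD 641) against 563.4, 391.2 and 329.2 CPM in spleen A, B and C. The median cell held 728 CPM in small intestine and 412.4, 251.5 and 170.8 CPM in spleen. The share of cells with at least 10 reads was 89.8% in small intestine and 78.2%, 64.8% and 67.5% in spleen, and the interval for small intestine (83.4% to 94.3%) overlapped that of spleen A alone (70.2% to 84.9%). The log2 ratio was 0.92 over pooled spleen and 0.52, 1.05 and 1.30 over the 3 sets. Spleen A was again the highest spleen set. Il21r and Foxp3 correlated at rho = 0.39 there, 0.16 in spleen B, -0.11 in spleen C and -0.12 in small intestine. The part of Foxp3 cells was not tested here either. Without cells holding a Foxp3 read the spleen sets came to 348.9, 362.1 and 339.5 CPM and the log2 ratios to 1.24, 1.19 and 1.28, at least 2-fold over each. The spleen A value then rested on 48 cells.

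Il4ra, the chain for IL-4, varied in mean CPM as much within the spleen as between tissues when all kept cells were counted. It lies upstream of Il21r on the same strand (chr7:125552120-125579474), with 23954 bases between both genes. Its mean was 193.9 CPM in small intestine (SD 252.4) and 231.4, 88.4 and 143.96 CPM in spleen A, B and C. The small intestinal value lay inside the range of the spleen, where spleen A was above spleen B by a log2 ratio of 1.38, and by 0.75 without cells holding a Foxp3 read. Without those cells, small intestine at 179.3 CPM was above all 3 spleen sets (138.5, 82.2 and 149.4 CPM). By medians over all kept cells it was also above them, with 105.9 CPM against 13.9, 0 and 0 CPM. The part of Foxp3 cells was not tested. Of small intestinal cells 54.01% held at least 10 reads, and of splenic cells 47.4%, 26.9% and 39.8%, a share above all 3 spleen sets though its interval (45.3% to 62.6%) overlapped those of spleen A and C. Of all genes, 4.66% were at least 2-fold higher in spleen A than in spleen B and 5.59% at least 2-fold lower. Il4ra was the 1 member called there, and none was lower. Between spleen C and spleen B, where 6.75% of genes were at least 2-fold higher and 6.63% lower, no member was called in either direction.

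The receptor for IL-10 was a modest transcript in these IL-10-producing cells. Il10ra (chr9:45253837-45269149, minus strand) averaged 102.1 CPM in small intestine (SD 206.9) and 199.9, 180.4 and 151.5 CPM in spleen A, B and C. Small intestine was below all 3 sets, at a log2 ratio of -0.80 over pooled spleen and -0.96, -0.81 and -0.56 over the sets. Without cells holding a Foxp3 read the log2 ratios were -0.23, -0.84 and -0.59 over spleen A, B and C, and by medians over cells the call was lost, since the median was 0 in small intestine and in pooled spleen. The transcript reached 10 reads in 30.7% of small intestinal cells and in 42.1%, 39.3% and 35.8% of splenic cells, with overlapping intervals. The lower mean was therefore not accompanied by a share that could be told apart at this number of cells. Its partner chain Il10rb averaged 73.4 CPM in small intestine and 98.8, 115.2 and 107.9 CPM in spleen, also below all 3. Both chains at 10 reads or more were found together in 10.2% of small intestinal cells and in 16.5%, 17.2% and 12.2% of splenic cells.

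Il6st, which encodes gp130, showed the largest tissue difference among the receptors. The gene (chr13:112464070-112510086, plus strand) averaged 63.5 CPM in small intestine (SD 151.8) and 540.1, 318.02 and 219.1 CPM in spleen A, B and C. The upper quartile of small intestinal cells was 4.45 CPM, while the median cell of spleen A held 362.3 CPM. Only 27 small intestinal cells or 19.7% held at least 10 reads (interval 13.4% to 27.4%), against 70.7%, 50.3% and 50.4% of splenic cells. The small intestinal interval lay below all of the spleen, and that of spleen A (62.2% to 78.2%) lay above that of spleen C (41.2% to 59.5%). After thinning to 200000 reads, cells with any Il6st read were 29.5% in small intestine and 78.9%, 60.6% and 67.3% in spleen, next to 32.1%, 82.7%, 66.2% and 69.1% before. The log2 ratio was -2.49 over pooled spleen and -3.07, -2.31 and -1.77 over the sets. Without cells holding a Foxp3 read it was -2.88, -2.23 and -2.03.

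Il27ra, the partner of gp130 for IL-27, was in contrast similar across sets. Il27ra (chr8:84030294-84042589, minus strand) averaged 276.8 CPM in small intestine (SD 289.4) and 329.6, 307.8 and 226.7 CPM in spleen A, B and C. The small intestinal mean fell inside the spleen range, with log2 ratios of -0.25, -0.15 and 0.29. The 10-read limit was reached in 70.1% of small intestinal cells and in 81.2%, 74.5% and 73.2% of splenic cells. The share was below all 3 spleen sets, but the intervals overlapped.

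**Figure D3:**
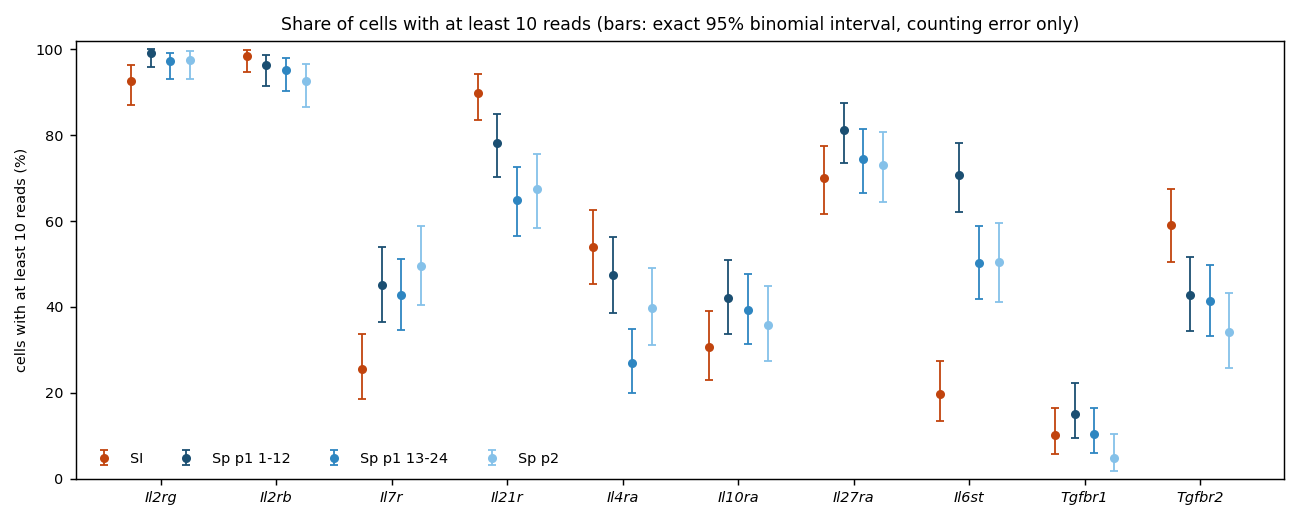
Share of cells with at least 10 reads of each receptor gene, with exact 95% binomial intervals, in small intestine (SI) and in spleen (Sp) p1 columns 1-12, p1 columns 13-24 and p2. Il6st at 19.7% and Il7r at 25.5% in small intestine lie apart from every spleen set.

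The TGF-beta receptor chains went different ways. Tgfbr2, the ligand-binding chain (chr9:116084293-116175360, minus strand), averaged 274.2 CPM in small intestine (SD 336.2) and 126.6, 128.3 and 127.1 CPM in spleen A, B and C. The 3 spleen sets were nearly equal, and the log2 ratio over them was 1.11, 1.09 and 1.10. Cells with at least 10 reads were 59.1% of small intestinal cells and 42.9%, 41.4% and 34.1% of splenic cells, and the interval for small intestine (50.4% to 67.4%) overlapped that of spleen A (34.3% to 51.7%) but not those of spleen B and C. Without cells holding a Foxp3 read the ratio over spleen A was 0.95, just under 2-fold. Tgfbr1, the signalling chain (chr4:47353222-47414931, plus strand), was the scarcest member, with 27.3 CPM in small intestine and 38.9, 22.7 and 17.7 CPM in spleen. Its 10-read share was 10.2% in small intestine and 15.04%, 10.3% and 4.88% in spleen. The small intestinal value was inside the range of the spleen, and 11.7% of small intestinal cells had any read.

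Counted by shares in place of means, small intestine lay below all 3 spleen sets for 5 of the 10 members (Il2rg, Il7r, Il10ra, Il27ra and Il6st) and above for 4 (Il2rb, Il21r, Il4ra and Tgfbr2). Over all genes these counts were 44.4% and 26.1%. Each cell held on average 5.50 of the 10 receptors at 10 reads or more in small intestine, and 6.18, 5.43 and 5.46 in spleen A, B and C. No small intestinal cell held all 10, and 2 cells of spleen A did.

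Per kilobase of exon, which allows levels of different genes to be compared, Il2rg led in both tissues with 605 CPM per kilobase in small intestine and 1136 in spleen. Il2rb and Il21r followed in small intestine at 327.4 and 318.8 CPM per kilobase, and Il2rb (306.1), Il21r (168.9) and Il7r (155.97) in spleen. Il27ra stood at 103.9 in small intestine and 108.9 in spleen. Il6st passed from 32.9 CPM per kilobase in spleen to 5.79 in small intestine, next to Tgfbr1 as the lowest of the 10 (4.25). The exon lengths are from GENCODE M21, and the annotation used for counting is not given in the sources used here.

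Because the receptors work as pairs, cells with at least 10 reads of both chains were counted. Il27ra with Il6st were found together in 14.6% of small intestinal cells (interval 9.15% to 21.6%) and in 55.6%, 36.6% and 38.2% of cells of spleen A, B and C. Of the small intestinal cells with Il27ra, 20.8% also held Il6st, against 68.5%, 49.1% and 52.2% in spleen. These values are near the Il6st shares of all kept cells, which were 19.7%, 70.7%, 50.3% and 50.4%. The difference of the pair thus follows from Il6st alone and is not a separate result. Il27ra itself was at 10 reads or more in most cells of every set.

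The IL-6 receptor, which also uses gp130, was nearly without transcript of its alpha chain in small intestine. Il6ra had 1 read in 1 small intestinal cell, against 15257 reads in 49.1% of splenic cells. In spleen A, B and C, 37.6%, 31.03% and 46.3% of cells held at least 10 reads. Small intestine held 0 cells with at least 10 reads of both Il6ra and Il6st (upper bound 2.66%), while 28.6%, 19.3% and 30.9% of splenic cells did. With no small intestinal cell at 10 reads of Il6ra, the pair could not occur there.

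Il2rb and Il2rg were together in 91.2% of small intestinal cells and in 90.2% to 95.5% of splenic cells. Addition of the alpha chain Il2ra, which raises affinity for IL-2, separated the sets: Il2ra with Il2rb were in 33.6% of small intestinal cells and in 66.9%, 49.7% and 29.3% of cells of spleen A, B and C. The spleen sets spanned the small intestinal value for this pair. Tgfbr1 and Tgfbr2 were found together in 7.30% of small intestinal cells and in 6.02%, 5.52% and 2.44% of splenic cells. Tgfbr1 was the rarer chain in each set.

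**Figure D4:**
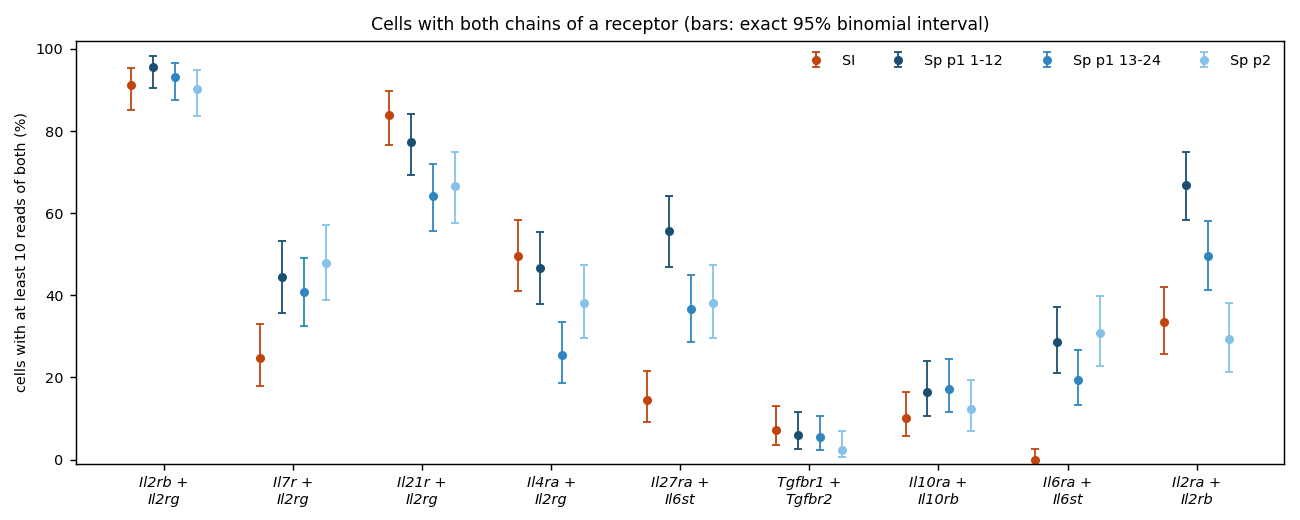
Share of cells with at least 10 reads of both genes of 9 receptor pairs, with exact 95% binomial intervals, in small intestine (SI) and in spleen (Sp) p1 columns 1-12, p1 columns 13-24 and p2. The small intestinal interval lies below all spleen intervals for Il27ra with Il6st (14.6%) and Il6ra with Il6st (0), while Il7r with Il2rg (24.8%) and Il10ra with Il10rb (10.2%) are lower in value with overlapping intervals. The difference for Il27ra with Il6st follows from the share of Il6st alone. The 0 for Il6ra with Il6st follows from Il6ra alone.

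Across cells, the receptors correlated weakly with Il10 or not at all. Il10 averaged 2361 CPM in small intestine and 1947, 1921 and 826 CPM in spleen A, B and C. Of 40 combinations of a member and a set, Spearman's rho with Il10 ranged from -0.13 (Tgfbr2, spleen A) to 0.17 (Il2rb, spleen B), and 0 exceeded 0.2 in size. The 5th to 95th percentile of all genes in small intestine was -0.15 to 0.13, and Il27ra at 0.14 lay just above it, as did Il2rb in spleen B, where the 95th percentile was 0.16. Only Il21r had the same sign in all 4 sets, with rho of 0.07, 0.08, 0.02 and 0.04. It also did so with Pearson's r, a partial correlation, cell cycle phases kept and Foxp3-read cells left out. After thinning, over cells with an Il10 read only, or with eGFP, 0 members had the same sign in all 4 sets. How many of all genes do so was not counted. Over the kept cells of each set, Il10 and its eGFP reporter correlated at 0.65, 0.50, 0.71 and 0.75. A relation of that size was thus measurable for this pair. The pair cannot show the same for members without a read in most cells, such as Tgfbr1, or Il6st in small intestine. Tied values limit rho there. The cells share plates and depth, and the sort on the reporter narrows the range of Il10.

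**Figure D5:**
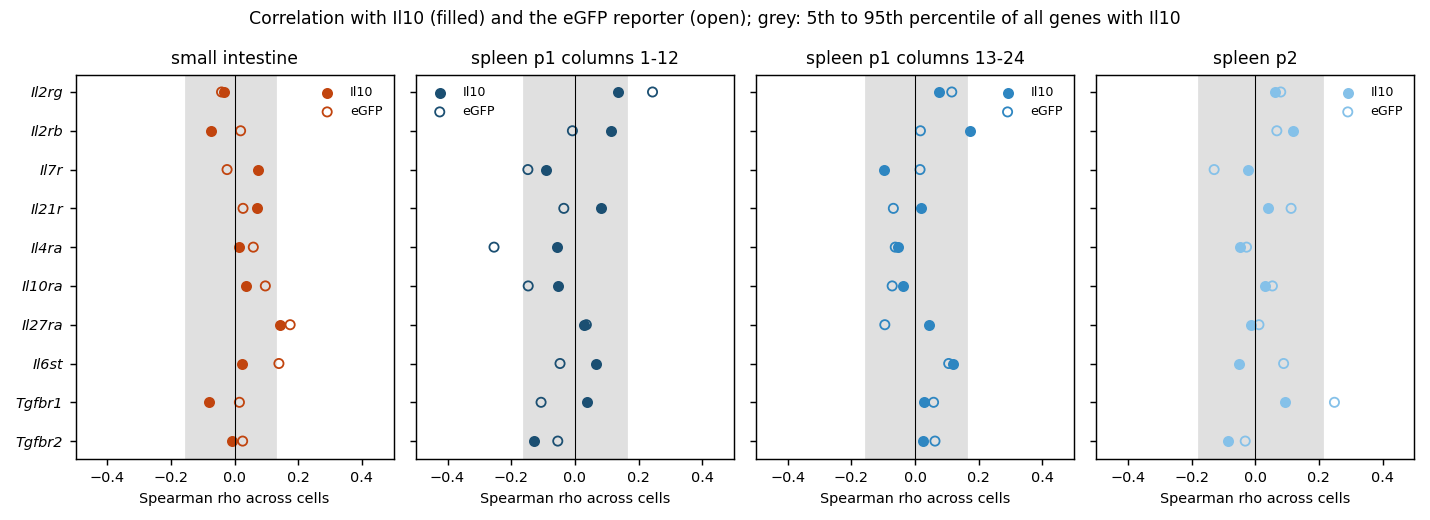
Spearman's rho across cells of each receptor gene with Il10 (filled) and with the eGFP reporter (open), in small intestine and the 3 spleen sets, with the 5th to 95th percentile of all genes with Il10 in grey. The Il10 values lie between -0.13 and 0.17.

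The reporter in place of Il10 gave 3 combinations over 0.2 in size, of which the largest was Il4ra in spleen A at -0.25, followed by Tgfbr1 in spleen C (0.25) and Il2rg in spleen A (0.24). The Il10 values of the same combinations were -0.06, 0.09 and 0.14. Depth moved with some members: Il7r correlated at -0.43 with the number of genes per cell in spleen C, and Il2rb at 0.24 with total reads there. A partial correlation with Il10 given reads and genes put 1 of the 40 combinations over 0.2 (Il2rb in spleen B, 0.21).

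The receptors were also only loosely related to each other. Of the 45 pairs of members, 8 had a positive rho in all 4 sets and 3 a negative one, with values from -0.28 to 0.34. The same count was not made over pairs of all genes, so 8 and 3 cannot be called many or few. The pair with the highest lowest value was that of the neighbours Il21r and Il4ra, at 0.20, 0.16, 0.19 and 0.12. Il2rb with Il10ra reached 0.34 in spleen A and 0.01 in spleen B. Over 7032 genes with at least 10 CPM in all 4 sets, the gene most like Il6st was Hdac7 (lowest rho 0.21), followed by Skil (0.14) and Cd2 (0.13). Il10ra was most like Ctsd (0.21), Acp6 (0.17) and Nkg7 (0.17), and Il2rb most like Tnfrsf18 (0.18), Ifngr1 (0.18) and Tex2 (0.16). Il7r was closest to Cish (0.17), Dgka (0.16) and Cdkn1b (0.14).

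For the remaining members the nearest genes reached no more than 0.13 in their lowest set. These were Timm17b, Sdhb and Bcl2a1d for Il2rg, Med1, Il4ra and Cblb for Il21r, Il21r, Mrpl3 and Mrpl9 for Il4ra, AI462493, Nfrkb and Nab1 for Il27ra, Zswim8, Tinf2 and Itgav for Tgfbr1, and Trub2, Mxd4 and Lars2 for Tgfbr2. All such values are descriptions over the kept cells of each set.

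The sorted cells also held transcripts of ligands of these receptor families. In the lists that follow, counts stand against 44.8% of all genes below and 24% above all 3 spleen sets, 11% and 5.22% by at least 2-fold, and a median log2 ratio of -0.24. Of 17 ligand genes 8 reached 10 CPM, of which 4 lay below (3 by at least 2-fold) and 3 above (1 by at least 2-fold), with a median log2 ratio of -0.63. Il10 itself was higher in small intestine at a log2 ratio of 0.57, and Tgfb1 lay within the spleen range at 0.04. Lif, a ligand of gp130, had a read in 82 splenic cells or 20.4% (interval 16.6% to 24.7%) and in 0 small intestinal cells (exact upper bound 2.66%). Il4 had a read in 28 splenic cells or 6.98% (4.69% to 9.93%) and likewise in 0 small intestinal cells. Il22, an IL-10 family cytokine that acts on epithelium and binds none of the 10 receptors, had a read in 15 small intestinal cells or 10.9% (6.26% to 17.4%) and in 0 splenic cells (exact upper bound 0.916%). No fold is given for these genes, since the reads include PCR copies from few cells. Osm, another gp130 ligand, averaged 4.96 CPM in small intestine against 27.8, 34.5 and 23.96 CPM in spleen. Tgfb3 was higher in small intestine at 28.3 CPM against 19.4, 3.81 and 17.1 CPM.

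Of 26 other receptor chains 15 reached 10 CPM, with 3 below and 5 above all spleen sets, 1 each way by at least 2-fold, and a median log2 ratio of -0.05. Il2ra averaged 93.3 CPM in small intestine and 606, 383.6 and 184.98 CPM in spleen A, B and C. By share of cells with at least 10 reads it was not below spleen C (33.6% against 68.4%, 53.1% and 33.3%). Its spleen means fell in the order of the Foxp3 shares, and the part of Foxp3 cells was not tested. Ifngr1, a chain of the interferon-gamma receptor, averaged 1966 CPM in small intestine against 947, 581 and 593 CPM, a log2 ratio of 1.476 over pooled spleen. Il23r, the IL-23 receptor chain, had 18.6 CPM in small intestine and 4.20 CPM in pooled spleen. The spleen sets A, B and C stood at 0, 11.3 and 0.37 CPM, and the log2 ratio over spleen B was 0.68. A read was found in 17 small intestinal and 6 splenic cells. Bmpr1a had 11.7 and 4.72 CPM, but the small intestinal mean came from 4 cells with a read (2.92%, against 2.74% of splenic cells), and at least 10 reads were in 1.46% there against 3.01% in spleen A.

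Among 14 kinases and transducers 4 lay below and 4 above, none of them 2-fold from every spleen set, with a median log2 ratio of 0.06. Stat3, used by IL-10, IL-21 and gp130, averaged 1099 CPM in small intestine against 626, 619.8 and 550.7 CPM in spleen, and Stat4 593 CPM against 203.4, 248.02 and 385.8 CPM. Stat2 was also above, at a log2 ratio of 0.75 over pooled spleen. Stat6, used by IL-4, averaged 122.2 CPM against 252.1, 182.3 and 224.7 CPM. The TGF-beta mediators Smad2 and Smad3 were below all spleen sets, at log2 ratios of -0.99 and -1.36 over pooled spleen, although Tgfbr2 was above.

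Of 21 inhibitor genes 20 reached 10 CPM, with 5 below, 9 above and a median log2 ratio of 0.17. At least 2-fold above every spleen set were 3 and at least 2-fold below 1. Skil averaged 446.9 CPM in small intestine against 94.04, 73.4 and 55.9 CPM in spleen, Smurf2 96.98 CPM against 25.7, 20.9 and 26.3 CPM, and Smad7 49.6 CPM against 18.7, 5.75 and 13.03 CPM. These 3 restrain TGF-beta signalling, while of other genes with that role Ski was above all spleen sets at a smaller log2 ratio of 0.50 over pooled spleen, Smurf1 lay within the spleen range at -0.34, and Smad6 did not reach 10 CPM. Lower in small intestine were Socs5 (log2 ratio -1.53), Socs4 (-1.24) and the phosphatase gene Ptpn6 (-1.06).

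Of 14 target genes 13 reached 10 CPM, with 4 below and 6 above, 2 each way by at least 2-fold, and a median log2 ratio of 0.05. Itgae, which encodes CD103 and is induced by TGF-beta, averaged 518.9 CPM in small intestine against 38.6, 1.54 and 1.45 CPM in spleen A, B and C, with at least 10 reads in 59.9% of small intestinal cells. Pim1, a STAT target, averaged 48.2 CPM against 19.5, 18.95 and 12.4 CPM, and Pim2 was above at a log2 ratio of 0.91. Over spleen C the Pim2 ratio was 0.47. Its share of cells with at least 10 reads was 16.8%, inside the spleen range of 12.03% to 21.1%. Klf2, a regulator of T-cell exit from tissues, was lower at 4.42 CPM against 61.97, 83.04 and 169.2 CPM. Myc and Ccnd2, which drive growth and the cell cycle, were also lower, with log2 ratios of -1.78 and -1.12.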

How the data were processed

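Per the labels, reads were aligned to mm10 with STAR, whereas the study's methods name another build and RPKM values; the counter and annotation behind the deposited tables are not given in the sources used here. The authors deposited whole-number read counts per gene and cell, one table per tissue, analysed with the eGFP row (0.00979% of reads) left out of library totals. Cells more than 3 median absolute deviations below their tissue's median of log reads or log genes were removed, then cells not called G1 by cyclone (scran 1.30.0; 632 of 667 marker genes matched). No doublet caller was run, and no 2 cells had identical counts. CPM was averaged over cells with equal weight, and 1 CPM was added before log2. Shares have Clopper-Pearson intervals, and 10 reads was the limit for detection. Since SMART-seq2 counts PCR copies, intervals cover counting error only. The small intestine and spleen C share plate number p2. The members and gene lists were chosen with earlier results of these data known. Pathway genes were named by a rule: up to 3 per direction and list, of largest ratio among those outside the range of the spleen sets. The scripts were tested on simulated data. Alternatives used TMM (edgeR 4.0.16) and DESeq2 1.42.0 size factors, other filters, pseudocounts, medians, thinning to 200000 reads and other correlations.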

Additional observations from a re-analysis of the deposited data

How the results depend on the processing

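No paired analysis was possible because the result comes from no test: each set is 1 sample, and no replicate could be left out within it. No called member changed sign under an alternative. The counts of members in the report changed as follows, and the cause was not tested. With the 5 highest cells of each set left out, 2 members were at least 2-fold below every spleen set in place of 1, and 1 member was 2-fold apart between spleen C and spleen B in place of 0. With the median over cells in place of the mean, 3 members lay below all spleen sets in place of 4, with Il10ra lost, and 3 above in place of 2, with Il4ra gained; 2 were at least 2-fold below and 2 above every spleen set, 2 differed between spleen C and B, and 3 between spleen A and B in place of 1. In alternatives added after the data were seen, leaving out cells with a Foxp3 read gave 4 members above all spleen sets in place of 2, 0 apart between spleen A and B, and 4 shares of cells below all spleen sets in place of 5, with Il10ra lost, and leaving spleen A out of the range gave 5 above, with 2 at least 2-fold below and 2 at least 2-fold above. Correlations with Il10 over 0.2 in size numbered 0 of 40, but 1 with Pearson's r, 1 with the partial correlation, 2 over cells with an Il10 read only, 3 with eGFP and 4 without cells holding a Foxp3 read. Over all alternatives, 28 log2 ratios of single members moved by more than the spread between spleen sets, and 53 shares moved out of their interval. Thinning to 200000 reads, with shallower cells left out, took cells with an Il7r read in small intestine from 36.5% to 31.1%, and with a Tgfbr1 read from 11.7% to 11.4%.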
